A study of Rattus norvegicus with 3 samples.

Results

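HA-TET2 peaks that lie just inside a gene, up to 1 kb downstream of its transcription start site (TSS) without covering it, were examined in rat aortic smooth muscle cells (SMC). A peak was taken when the authors' annotation placed it in the promoter within 1 kb and its signed distance to the nearest start site was above 0. The Control list held 1612 such peaks among 25521 (6.32%, interval 6.02 to 6.62), and the Myocd-LSD1 list held 879 among 9523 (9.23%, 8.66 to 9.83). Together these were 2491 of 35044 peaks.

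There were 3 samples, 2 of wild-type control SMC (Control) and 1 of an SMC line called Myocd-LSD1. All of them, controls included, had received an adenovirus carrying HA-tagged TET2 for 24 h, so the protein mapped was introduced and not the cells' own. Sites were mapped by CUT&Tag from 500000 cells with an antibody to the HA tag. The comparison asked where introduced TET2 was found in each kind of cell. The sources used here give neither what the Myocd-LSD1 line carries beyond its name nor whether it is 1 clone. Peaks do not measure expression, so the labelled cell type was not checked against expressed markers.

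TET2 is a dioxygenase that oxidises 5-methylcytosine, a step on the way to removal of DNA methylation. It has no DNA-binding CXXC domain of its own and is thought to reach chromatin through partner proteins. Myocardin (Myocd) is the coactivator of SRF that drives contractile genes in smooth muscle, and LSD1 (Kdm1a) removes methyl groups from lysine 4 of histone H3. The first kilobase of a transcribed gene holds the first nucleosomes, the pausing site of RNA polymerase II and, in many genes, the downstream part of a CpG island.

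With 1 list of peaks per group there is no replicate error, and conditions and classes of peaks were compared without p-values. The intervals given are 95% binomial ones by the exact Clopper-Pearson method, for counting error alone. Peaks of a list are not replicates. The number of fragments overlapping at a peak's summit (its pile-up) was recovered from the deposited fold enrichment and p-value. Downstream peaks rested on a median of 7 fragments in Control (quartiles 5 and 10) and 5 in Myocd-LSD1 (3 and 6). With 3 fragments or fewer there were 122 members in Control (7.59%) and 236 in Myocd-LSD1 (26.9%). The lowest local background outside the mitochondrial sequence was 0.175 fragments in Control, 2.77 times the 0.0633 of Myocd-LSD1. Fewer bound sites and a thinner Myocd-LSD1 library therefore cannot be told apart from the number of peaks.

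To show the DNA at the start sites beside such peaks, the start-site regions of 4 genes are printed. They are the named peaks (the strongest pairs of both lists and the strongest peaks found in 1 list alone) that began within 50 bases of the start and had 1 window. Each window runs from 250 bases before to 50 after the RefSeq start on build GRCr8, 5′ to 3′ on the gene's strand, with every CpG, the dinucleotide in which rat DNA is methylated, in capitals. The RefSeq start need not be the start that the authors' rn6 annotation used. From the authors' start the peaks began at 25 bp (Spag7), 14 bp (Thoc1), 47 bp (Trim41) and 17 bp (Pramef27). Where both starts agree, nearly all of each window therefore lies before the peak, and most of the peak lies beyond the window. Spag7 had a downstream peak in both lists and its window is GRCr8 chr10:55881976-55882275, minus strand. Thoc1 (chr18:1256410-1256709, plus strand) and Trim41 (chr10:33687383-33687682, minus strand) had one in Myocd-LSD1 alone, and Pramef27 (chr5:161039053-161039352, plus strand) had one in Control alone.
Spag7: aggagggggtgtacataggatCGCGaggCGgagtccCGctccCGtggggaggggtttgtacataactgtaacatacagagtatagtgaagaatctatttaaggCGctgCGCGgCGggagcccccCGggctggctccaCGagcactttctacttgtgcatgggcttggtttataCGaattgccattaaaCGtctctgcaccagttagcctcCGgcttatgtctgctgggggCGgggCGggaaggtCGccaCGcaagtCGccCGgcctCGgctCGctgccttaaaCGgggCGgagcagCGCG
Thoc1: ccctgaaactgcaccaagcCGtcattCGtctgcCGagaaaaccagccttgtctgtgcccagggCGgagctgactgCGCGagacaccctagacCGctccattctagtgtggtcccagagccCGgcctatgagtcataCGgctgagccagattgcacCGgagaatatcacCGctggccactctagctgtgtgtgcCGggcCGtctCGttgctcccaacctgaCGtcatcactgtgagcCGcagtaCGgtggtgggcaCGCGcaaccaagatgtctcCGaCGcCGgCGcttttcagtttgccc
Trim41: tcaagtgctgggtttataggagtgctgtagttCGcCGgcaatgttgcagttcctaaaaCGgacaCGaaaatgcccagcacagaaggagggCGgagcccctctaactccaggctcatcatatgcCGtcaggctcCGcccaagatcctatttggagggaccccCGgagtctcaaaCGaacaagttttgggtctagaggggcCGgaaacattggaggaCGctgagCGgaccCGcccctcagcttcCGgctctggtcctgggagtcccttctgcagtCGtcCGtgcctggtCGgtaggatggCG
Pramef27: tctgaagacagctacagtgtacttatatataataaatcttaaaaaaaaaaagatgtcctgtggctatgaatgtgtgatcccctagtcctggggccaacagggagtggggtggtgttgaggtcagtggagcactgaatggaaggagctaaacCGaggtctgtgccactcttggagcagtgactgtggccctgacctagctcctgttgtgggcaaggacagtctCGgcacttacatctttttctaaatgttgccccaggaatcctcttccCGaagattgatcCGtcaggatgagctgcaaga

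The 4 windows differed in their CpG content. They held 26 CpGs in Spag7, 23 in Thoc1, 18 in Trim41 and 4 in Pramef27, beside a median of 7 (quartiles 3 and 19) over all 33469 windows of the table. The GC box GGGCGG, searched on both strands, was found in the windows of Spag7, Thoc1 and Trim41 and in 33.1% of all windows, and it was not found in that of Pramef27. A match describes these letters, which lie mostly before the peaks, and is not a bound site. The CpG counts likewise describe the windows and not the peaks. Windows were at hand for 72.4% of Control and 72.9% of Myocd-LSD1 members, under the 80% set as a minimum, so a comparison of base composition over all members is void and is not given.

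Downstream peaks gathered close to the start site in both lists. Of the Control members 777 (48.2%, 45.7 to 50.7) had their nearest edge within 200 bp of the start, and of the Myocd-LSD1 members 555 (63.1%, 59.9 to 66.3). Between 801 and 1000 bp there were 157 (9.74%) and 47 (5.35%). The median summit lay 396 bp into the gene in Control (quartiles 218 and 713) and 264 bp in Myocd-LSD1 (166 and 488). On the upstream side the share in the first 200 bp was 54.8% for Control (52.2 to 57.5) and 65.1% for Myocd-LSD1 (61.9 to 68.3). Members just inside the limits were those of Exoc6 and Slc7a1, both 1 bp from the start in Control, and of Tex14, 1000 bp from it in Myocd-LSD1. The first Control peak outside, at Npc1l1, lay 1001 bp away with a fold enrichment of 7.88.

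**Figure D1:**
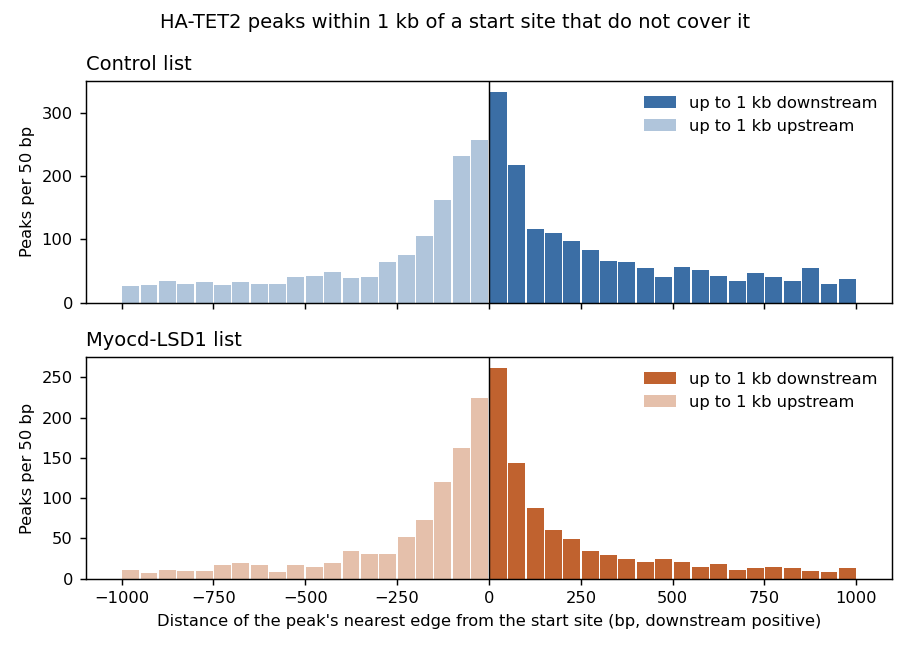
Number of HA-TET2 peaks per 50 bp against the distance of the nearest edge from the start site (bp), with downstream peaks in full colour and upstream peaks in pale colour, for the Control list (top) and the Myocd-LSD1 list (bottom). Peaks across the start site are not drawn; in both lists the bins next to the start are the highest, and 48.2% of Control and 63.1% of Myocd-LSD1 downstream peaks lie in the first 200 bp.

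The sides of the start were near balance in both lists. Downstream peaks made up 53.9% of the 2989 Control peaks that lay to either side within 1 kb (52.1 to 55.7) and 49.7% of the 1768 Myocd-LSD1 peaks (47.4 to 52.1). Control had 1.83 times as many peaks as Myocd-LSD1 downstream, 1.55 times upstream and 1.48 times across the start site. Between 1 and 3 kb downstream it had 4.42 times as many, and over the whole lists 2.68 times. The median member was 291 bp wide in Control (quartiles 223 and 413) and 234 bp in Myocd-LSD1 (193 and 302). Upstream peaks had medians of 296 and 262 bp. Widths are not compared with those of peaks across the start, since a wide peak reaches it more readily.

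Nearly all members lay within the transcript to which they were assigned. In Control 25 ran past its far end and 7 lay wholly beyond it, and in Myocd-LSD1 9 and 5. No member covered a start site named in either list. Another listed gene's start lay within 1 kb of 51 Control and 47 Myocd-LSD1 members, on the opposite strand in 49 and 43 of these. Plus-strand transcripts held 801 of the Control and 437 of the Myocd-LSD1 members.

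Short transcripts held a larger share of the Control members than of the other Control peaks. Those of at most 5 kb, from start to end with introns, held 412 of the 1612 Control members (25.6%), beside 18.9% of all Control peaks, 13.2% of peaks across a start and 17.2% of upstream peaks. In Myocd-LSD1 the share was that of the whole list, with 159 members (18.1%) beside 18.0% of all peaks, 12.0% across a start and 14.4% upstream. Non-coding RefSeq transcripts (accessions starting NR or XR) held 14.0% of Control members (12.4 to 15.8). This lay below the 22.0% of all Control peaks (21.5 to 22.5) and above the 6.32% of peaks across a start (5.47 to 7.25) and 11.6% of upstream peaks (9.97 to 13.4). In Myocd-LSD1 they held 10.7% of members (8.73 to 12.9), beside 19.9% of all peaks (19.1 to 20.7), 4.54% across a start (3.67 to 5.54) and 7.99% upstream (6.29 to 9.97).

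Control downstream peaks had a Myocd-LSD1 peak on them about as often as Control peaks at large, and less often than the other peaks at start sites. A peak is called met here when it shares at least 1 bp with any peak of the other list. Of the Control members 384 were met (23.8%, 21.8 to 26.0), beside 22.0% of all Control peaks. The share was 40.1% (37.5 to 42.7) for upstream peaks, 57.7% (55.9 to 59.5) for peaks across the start and 13.7% (11.8 to 15.9) between 1 and 3 kb downstream. Of the Myocd-LSD1 members 486 were met (55.3%, 51.9 to 58.6), beside 59.4% of all Myocd-LSD1 peaks, 71.0% of upstream peaks (67.9 to 73.9) and 75.7% of peaks across the start (73.8 to 77.6). In both lists the intervals of the upstream class and of the class across the start lay above that of the downstream peaks. Between 1 and 3 kb downstream 65.3% of Myocd-LSD1 peaks were met (59.0 to 71.3). Weighted to the pile-ups of the Myocd-LSD1 members, the gaps in that list were smaller. The shares were then 55.3% downstream, 58.9% upstream, 64.8% across the start and 57.9% over all Myocd-LSD1 peaks. The share depended on the setting. Under a reciprocal overlap of 50% it was 15.1% for Control members beside 14.4% of all Control peaks, and 33.6% for Myocd-LSD1 members beside 38.6% of all Myocd-LSD1 peaks. With the Control list shortened to 9523 peaks it was 37.2% beside 38.7%, and 27.6% beside 39.1%.

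The gap between the sides of the start was widest among the best supported Control peaks. With more than 20 fragments at the summit, 38 of 88 downstream peaks were met (43.2%, 32.7 to 54.2), 88 of 109 upstream peaks (80.7%, 72.1 to 87.7) and 178 of 208 peaks across the start (85.6%, 80.1 to 90.1). All Control peaks of that support were met at 52.9% (50.6 to 55.2). With 11 to 20 fragments the shares were 31.2% downstream (25.8 to 37.1), 64.5% upstream (59.0 to 69.7) and 35.4% overall (34.2 to 36.7). With 6 to 10 fragments they were 25.7% (22.4 to 29.1), 32.6% (28.7 to 36.6) and 18.9% (18.1 to 19.6), and with 4 or 5 fragments 15.7% (12.5 to 19.4), 19.9% (15.5 to 24.8) and 9.46% (8.72 to 10.2). With 3 or fewer, 14 of 122 downstream peaks (11.5%, 6.42 to 18.5) and 7 of 71 upstream peaks (9.86%, 4.06 to 19.3) were met, so the sides were not told apart there. At 10 fragments or fewer downstream peaks were met more often than Control peaks at large, and above that they were not. Weighted to the pile-ups of the downstream peaks, the shares were 23.7% downstream, 35.3% upstream, 51.3% across the start and 19.8% over all Control peaks.

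**Figure D2:**
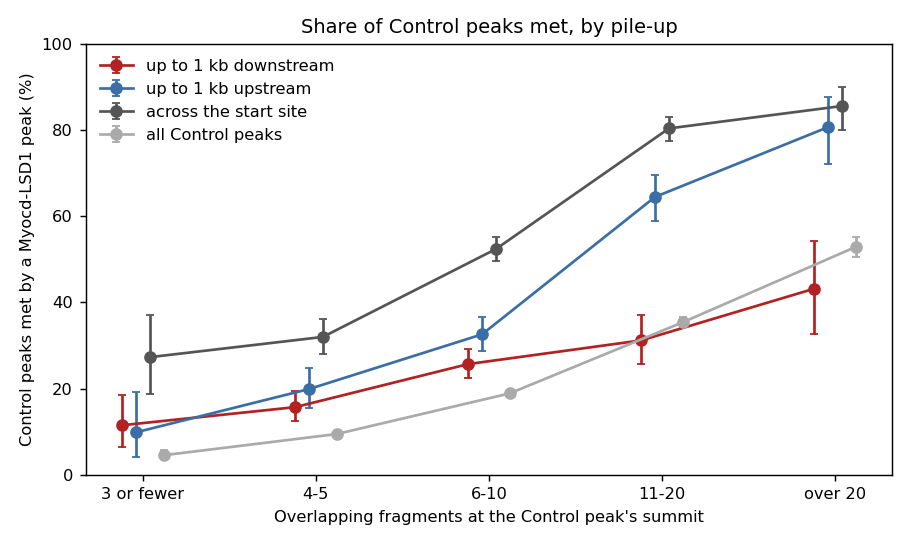
Share of Control peaks met by a Myocd-LSD1 peak (%) against the number of fragments at the Control summit, for peaks downstream of, upstream of and across the start site and for all Control peaks; bars are exact binomial 95% intervals. In the class over 20 fragments the downstream share is 43.2%, below 80.7% upstream and 85.6% across the start.

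The same held for width. Among Control peaks of 401 to 800 bp, 32.0% of downstream (27.2 to 37.0) and 61.1% of upstream peaks (55.7 to 66.4) were met, and among those of at most 200 bp 13.1% (9.02 to 18.2) and 21.1% (15.7 to 27.2). Across quartiles of fold within the Control members the met share went from 14.0% to 16.7%, 27.5% and 37.6%. Met Control members had a median fold of 5.59 and a median width of 338 bp, and unmet ones 4.79 and 276 bp. In Myocd-LSD1 the quartiles gave 35.7%, 46.6%, 57.4% and 81.7%. All 7 Myocd-LSD1 members of more than 20 fragments were met (lower bound 59.0%), the mitochondrial ND5 peak among them, as were 41 of 45 with 11 to 20 (91.1%, 78.8 to 97.5).

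Close to the start the downstream share was higher, and it stayed below the upstream share at each distance. Of Control members within 200 bp of the start 30.8% were met (27.5 to 34.1), beside 48.2% on the upstream side (44.6 to 51.8). Between 201 and 400 bp the shares were 19.0% (14.8 to 23.8) and 34.5% (28.3 to 41.2). Between 601 and 800 bp they were 20.2% (14.4 to 27.2) and 29.3% (21.4 to 38.1). Between 801 and 1000 bp they were 14.6% (9.52 to 21.2) and 25.2% (17.7 to 34.0). In both of these last bins the intervals overlapped. The Myocd-LSD1 members showed no such slope, with 57.8% met in the first 200 bp (53.6 to 62.0), 40.2% between 401 and 600 bp (29.6 to 51.7) and 59.6% in the last 200 bp (44.3 to 73.6).

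**Figure D3:**
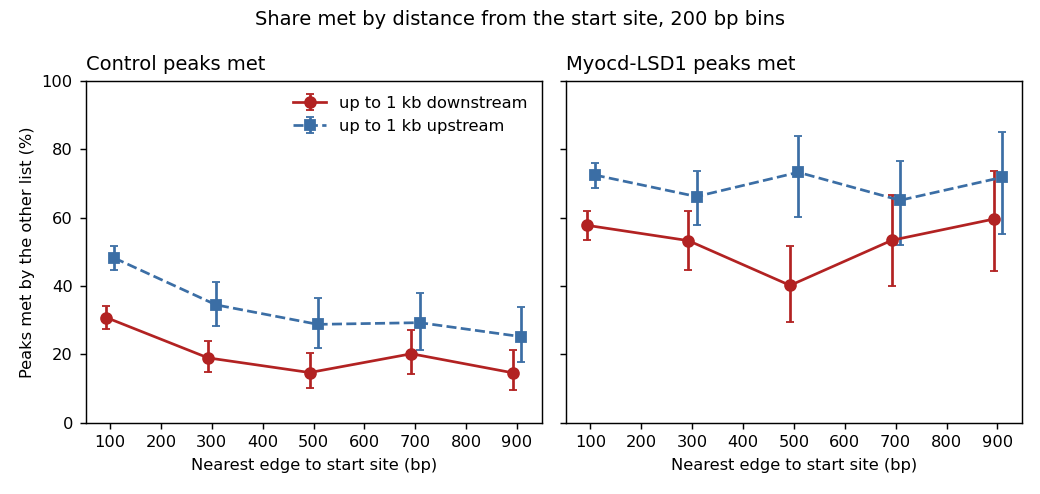
Share of Control peaks (left) and Myocd-LSD1 peaks (right) met by the other list (%) in 200 bp bins of distance from the start site, downstream (circles) and upstream (squares); bars are exact binomial 95% intervals. In Control the downstream share is 30.8% in the first bin and 14.6% in the last.

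Short transcripts were common among the strongest Control members. Of the 88 with more than 20 fragments, 43 (48.9%) were on transcripts of at most 5 kb, beside 19.3% of upstream peaks and 26.9% of peaks across the start with that support. Of these 43 members 15 were met (34.9%, 21.0 to 50.9), and of the 45 on longer transcripts 23 (51.1%, 35.8 to 66.3). On longer transcripts 84.1% of upstream peaks (74.8 to 91.0) and 90.1% of peaks across the start (84.2 to 94.4) of that support were met. The part of transcript length in the result was not tested.

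Most partners of met members lay in the same position class. Of the 384 met Control members 288 had a Myocd-LSD1 partner downstream of the same gene's start, 78 (20.3%) a partner across a start, 7 one upstream and 11 one between 1 and 3 kb downstream. Of the 486 met Myocd-LSD1 members 189 (38.9%) lay on a Control peak across a start, and 179 of these were assigned to the same gene. In these 189 the Myocd-LSD1 peak had a median width of 244 bp and its Control partner one of 463 bp. Of the 189 Myocd-LSD1 peaks 107 (56.6%) lay wholly inside the Control peak. The gap between summits of the 288 downstream pairs had a median of 92.5 bp, and 156 pairs (54.2%) had summits at most 100 bp apart.

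By gene, 1576 genes had a Control member and 872 a Myocd-LSD1 member, with 311 genes in both. Those 311 were 19.7% of the Control genes (17.8 to 21.8) and 35.7% of the Myocd-LSD1 genes (32.5 to 38.9). Of the 1576 Control genes 498 (31.6%, 29.3 to 34.0) had a Myocd-LSD1 peak anywhere within 1 kb of a start, beside 47.4% (46.1 to 48.8) of the 5630 genes with any Control peak within 1 kb. No Myocd-LSD1 peak at all was assigned to 834 (52.9%, 50.4 to 55.4), beside 41.4% (40.1 to 42.7) of those 5630 genes. Genes with a Control peak across a start had a Myocd-LSD1 peak within 1 kb at 57.9% (56.0 to 59.6), and those with an upstream peak at 45.9% (43.2 to 48.6). Of the 872 Myocd-LSD1 genes 557 (63.9%, 60.6 to 67.1) had a Control peak within 1 kb, and 179 (20.5%, 17.9 to 23.4) had no Control peak, beside 16.5% (15.4 to 17.8) of the 3674 genes with any Myocd-LSD1 peak within 1 kb. A downstream peak was mostly the gene's one peak near the start: 165 of the Control genes (10.5%) and 59 of the Myocd-LSD1 genes (6.77%) also had one across or upstream of it in the same list.

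**Figure D4:**
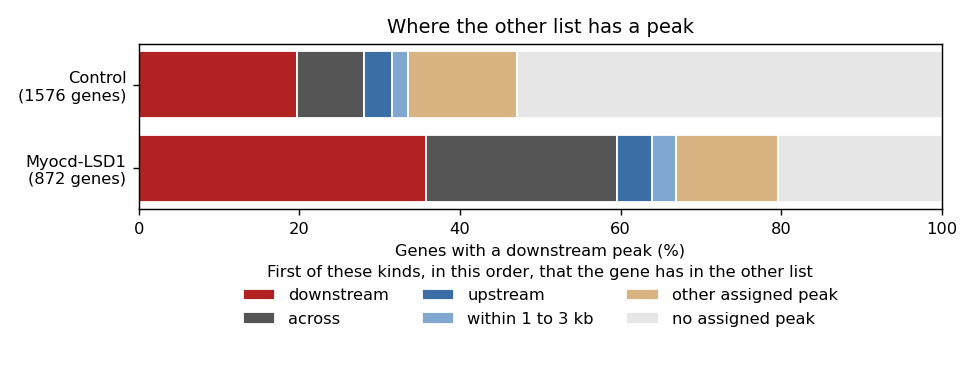
Genes with a downstream peak in the Control list (1576) and in the Myocd-LSD1 list (872), split (%) by the first of the listed kinds of peak that the other list has for the same gene. No assigned peak in the other list is the widest part of the Control bar (52.9%) and covers 20.5% of the Myocd-LSD1 bar.

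The strongest downstream peaks found in both lists belonged to genes of varied function. They were taken by the mean rank of fold within the lists, and those named here are among the 10 first on assembled chromosomes with a settled symbol. At Rad52, a factor of homologous recombination, the peak (rn6 chr4:152438650-152438959) lay 693 bp from its nearest annotated start with a fold of 14.2 and 116 fragments in Control and a fold of 14.7 and 33 fragments in Myocd-LSD1. Parg, which removes poly(ADP-ribose) from proteins, had the highest fold of the 10 in Control (chr16:8357162-8357828, fold 15.9, 41 fragments) and a fold of 8.06 on 10 fragments in Myocd-LSD1. Smdt1, a regulator of the mitochondrial calcium uniporter, had the reverse order of ranks, with a fold of 8.69 in Control (chr7:123578749-123579102, 18 fragments) and 11.8 in Myocd-LSD1 (19 fragments). Folds are the authors' and are read within each list only.

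The other 7 pairs had Control folds between 10.6 and 12.0. Lgals3 (galectin-3, a lectin raised in modulated smooth muscle cells) had folds of 12.0 and 8.78 on 35 and 15 fragments (chr15:24153695-24154207), and its peak began 93 bp from the start. Nek8, a kinase of the primary cilium, had 11.4 and 9.34. Spag7, whose start-site window is printed above, had 11.8 and 9.22 from 25 bp onward (chr10:57290395-57291121). Impact, an inhibitor of the kinase GCN2, had 11.2 and 9.20, Adam12, a metalloprotease, 11.2 and 8.96, and Hinfp, a zinc finger factor for histone H4 genes, 10.6 and 9.67. All 10 pairs were assigned to the same gene in both lists.

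**Figure D5:**
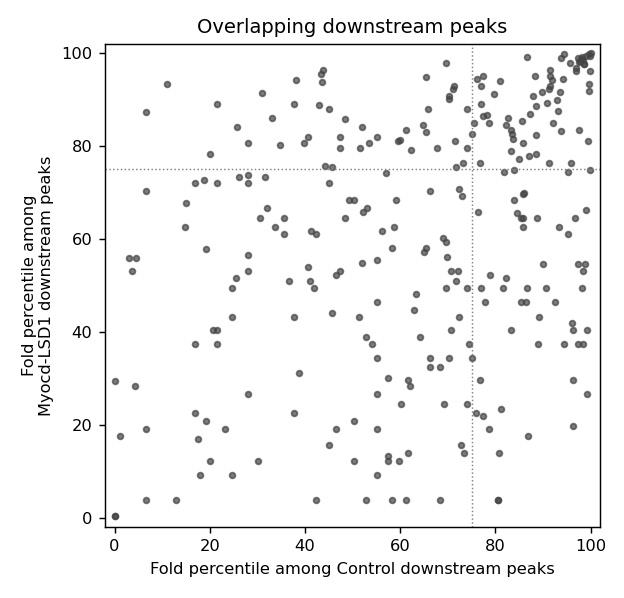
Percentile of fold enrichment within the Control downstream peaks (x axis) against that within the Myocd-LSD1 downstream peaks (y axis) for the 288 overlapping pairs; dotted lines mark the 75th percentile of each list. Of the 120 pairs past that line in Control, 66 are past it in Myocd-LSD1 too.

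Over the 288 pairs the ranks of fold in the lists had a Spearman rho of 0.349, a description over peaks that come from 1 list per group.

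Strong downstream peaks found in Control alone belonged mostly to genes with a single Control peak near the start, as did Control members at large. Of the 1576 genes with a Control member, 10.5% also had a peak across or upstream of the start, and 2.16% had 2 or more downstream. The 10 named here are the highest unmet members on assembled chromosomes that had a settled symbol and no Myocd-LSD1 peak within 1 kb of the gene's start, and unmet members that these limits pass over reached a fold of 14.7 (LOC102555477). The 10 ranged in fold from 11.0 to 14.1, with 17 to 63 fragments and a median width of 676 bp. Mocs3, a sulphurtransferase of molybdenum cofactor synthesis, came first among them (chr3:164986702-164987644, fold 14.1, 63 fragments, 281 bp from the start). Psmg3 (chr12:16899714-16900232, fold 13.4) and Kbtbd6, an adaptor of a cullin-3 ubiquitin ligase (chr15:61731719-61732615, fold 13.3), rested on 35 fragments each. Zbtb1, a BTB zinc finger repressor, had a fold of 12.4 on 36 fragments (chr6:99414860-99415730). Fam208a (also called Tasor), a subunit of the HUSH silencing complex, had 11.7 on 26 fragments (chr16:3050767-3051675). Best4 (a bestrophin channel), Pramef27, Paqr9, Hoxb5 and Sbk3 had folds of 11.8, 11.5, 11.4, 11.2 and 11.0. None of these 10 genes had a Myocd-LSD1 peak assigned to it anywhere, though the limits already left out genes with one within 1 kb. Of all 1078 Control genes without a Myocd-LSD1 peak within 1 kb, 834 had none anywhere.

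Downstream peaks found in Myocd-LSD1 alone rested on few fragments, as did Myocd-LSD1 members at large. Unmet members of that list had a median of 4 fragments, and met ones 5. The 10 highest under the same limits, here with no Control peak within 1 kb, ranged in fold from 6.38 to 7.30, with 7 to 11 fragments and a median width of 310.5 bp. Unmet members that the limits pass over reached a fold of 9.02 (RGD1566359). Trim41, a RING ubiquitin ligase, came first among the 10 (chr10:34166299-34166552, fold 7.30, 11 fragments). Cpne2 (a copine) had a fold of 7.08, Thoc1, a subunit of the THO complex in mRNA export, 6.99 (chr18:1142554-1142743, 14 bp from the start), and Eif1b, a translation initiation factor, 6.90. Trappc9 (vesicle tethering) had 6.81, Rabac1 (a Rab acceptor) 6.76 and Dnajb12 (a chaperone of the endoplasmic reticulum) 6.72. Tmem42 had 6.56, Klf10, a zinc finger factor induced by TGF-β, 6.43 at 977 bp from the start, and Rapgef6, an exchange factor for Rap, 6.38. Thoc1, Eif1b, Tmem42, Klf10 and Rapgef6 had no Control peak assigned, and the other 5 had Control peaks farther from the start. Of all 872 Myocd-LSD1 genes 557 had a Control peak within 1 kb, and 179 had none anywhere.

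A few genes carried several downstream peaks, at separate annotated starts or beside the same start. This was so for 34 Control genes and 7 Myocd-LSD1 genes. Arhgap22, a GTPase-activating protein for Rac, and Rad52 had 3 each in Control. Those of Arhgap22 (chr16:9454624-9454906, 9563765-9563940 and 9581052-9581599) had folds of 7.15, 6.38 and 9.83, and the first and last were met. Of the Rad52 peaks the other two, at folds of 5.12 and 6.40, were unmet. Adam1a, Adm (adrenomedullin, a vasodilator peptide) and Anks1a were the next by name with 2 each, all unmet. The unmet peaks of Rad52 shared an annotated start with each other, as did those of Adam1a and those of Adm. The peaks of Arhgap22 and of Anks1a lay at separate starts.

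Mylk was the one contractile gene with a peak of this kind, and 3 smooth muscle transcription factors had one. Of 36 contractile genes 13 had a Control peak within 1 kb of a start, and in 1 of these it was a downstream one (7.69%, beside 28.0% of the 5630 such genes in all). That gene was Mylk, the myosin light chain kinase, with an unmet peak of 3 fragments (chr11:69259701-69259876, fold 3.25). In Myocd-LSD1, where 23.7% of genes with a start-site peak had a downstream one, 0 of 6 contractile genes did. Of 27 smooth muscle transcription factors 12 had a Control peak within 1 kb and 3 a downstream one (3 of 12, near the 28.0% over all genes), each unmet. These were Yap1, the Hippo coactivator (chr8:6202702-6202919, fold 4.86, 6 fragments), Smad3, the TGF-β effector (chr8:68589322-68589493, fold 4.30, 6 fragments), and Klf5, a factor of the modulated state (chr15:83707944-83708135, fold 4.10, 5 fragments). With so few fragments, a missing Myocd-LSD1 call at these 4 peaks says little at this depth. Smad3 had 6 Myocd-LSD1 peaks elsewhere, 1 of them within 1 kb of a start, and Mylk had 2 farther from one. Yap1 and Klf5 had no Myocd-LSD1 peak. Of the 7 factors with a start-site peak in Myocd-LSD1, 0 had a downstream one, and with 6 and 7 genes these counts say little beside 23.7%. Of 23 early SRF targets Actb alone had a downstream peak, in both lists (fold 4.74 and 6.64, chr12:13716272-13716721 in Control).

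Fate regulators and genes of phenotypic modulation had a larger part of their start-site peaks downstream. Of the homeobox and other fate genes 11 had a Control peak within 1 kb, and in 7 it was a downstream one (63.6%, beside 28.0% over all genes). Of these 7 peaks 1 was met, that of Foxf1, which with so few peaks is not told apart from the 23.8% of all Control members. Foxf1 had folds of 14.5 and 7.08 on 74 and 11 fragments (chr19:53012484-53013328). Hoxb5 (fold 11.2, 25 fragments), Hoxd11 (4.92, 5 fragments) and Hoxc5 (4.13, 5 fragments) were unmet and had no Myocd-LSD1 peak. Of Control members with 4 or 5 fragments 15.7% were met. Of the genes of phenotypic modulation 4 of 7 had downstream peaks, and 2 of the 4 were met. Lgals3 and Col1a1, a chain of type I collagen (fold 6.01 and 5.16), had them in both lists, while Fn1 (fibronectin, fold 8.25, chr9:78968628-78969001) and Runx2, the osteogenic factor (fold 3.20), were unmet. With so few genes these parts are counts and not tests.

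TGF-β and BMP genes had 7 of 16 downstream (43.8%, beside 28.0% over all genes). Of the 7 peaks 3 were met, where 23.8% of all Control members were. These are again counts of few genes and not tests. Bmpr1a, a BMP receptor, was met at folds of 10.9 and 6.07, and Smurf1, a ubiquitin ligase for SMADs, at 10.3 and 8.33. Ltbp1, which holds latent TGF-β in the matrix (5.05), and Bmp4 (5.04) were unmet. Actin cytoskeleton genes had 4 of 15 (26.7%), near the share over all genes. Of these Capn2, a calpain protease (7.27 and 5.65), and Cfl1, the actin-severing cofilin (4.01 and 3.47), were met. Pfn1 (profilin, 4.76) and Wasl (N-WASP, 4.35) were unmet. In Myocd-LSD1 6 of the 16 actin genes with a start-site peak had a downstream one, beside 23.7% over all genes. Of these 6 peaks 2 were met, where 55.3% of all Myocd-LSD1 members were.

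Chromatin genes had downstream Control peaks at shares around or below the 28.0% over all genes, with few genes in each list. Of the DNA methylation list 2 of 7 had one (28.6%), namely Zbtb38, a reader of methylated DNA, met at folds of 5.05 and 5.06, and Idh1, the isocitrate dehydrogenase that makes the cosubstrate of TET enzymes, unmet at 5.16. Of the H3K4 methylation regulators 1 of 7 did (14.3%), Dpy30, a shared subunit of the methyltransferase complexes (unmet, 4.87). Of the remodelling and corepressor genes 3 of 14 did (21.4%), among them Smarca2 (4.59) and Smarcc2 (3.25), both SWI/SNF subunits and both unmet.

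In the lists of general cell functions, under 28.0% of the genes with a Control start-site peak had a downstream one. Cell cycle genes had 3 of 20, among them Cdk1 (fold 5.28, met by a Myocd-LSD1 peak across its start), the pocket protein gene Rbl2 (5.05, met) and the inhibitor Cdkn1a (3.75, unmet). Splicing genes had 4 of 26 (15.4%), with Sf3b1 (5.05) and Srsf5 (4.91) met and Tra2a (5.79) and Srsf1 (5.59) unmet. Ribosomal protein genes had 3 of 18 in Control and 7 of 13 in Myocd-LSD1, where 872 of 3674 genes (23.7%) had a downstream peak in all. Of these 7 Myocd-LSD1 peaks 2 were met, where 55.3% of all Myocd-LSD1 members were. These too are counts of few genes and not tests. Rps20 was in both lists (fold 4.46 and 5.78), Rpl13 and Rpl30 were unmet Control members, and Rpl5 (fold 6.35, 6 fragments) had a peak in Myocd-LSD1 alone. Heat shock and chaperone genes had 1 of 19, Hspa2 (chr6:99434333-99435478, fold 8.01, 27 fragments, unmet), while Bag3 and Cct2 had downstream peaks in Myocd-LSD1 that lay on Control peaks across the start.

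Markers of other cell types had start-site peaks in Control at 5 genes in all, too few to set a share beside 28.0%. Of 2 endothelial markers with one, Flt1, a VEGF receptor, had it downstream (fold 5.96). The 1 macrophage and leukocyte marker, Cd14 (4.58), and the 1 neural marker, Sox10 (6.92), had theirs downstream as well, and all of these were unmet. The 1 skeletal and cardiac muscle marker did not, and 0 fibroblast and 0 hepatocyte markers had a start-site peak.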

How the data were processed

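HA-TET2 CUT&Tag peaks were available as 1 deposited list for Control (2 samples by the labels) and 1 for Myocd-LSD1 (1 sample). Bowtie2, deepTools, MACS2 and ChIPseeker and the build rn6 are named per the submitters' processing notes; the sources used here give neither versions nor settings, nor whether Control reads were pooled. The authors deposited for each peak a fold enrichment (a ratio), −log10 of its p-value and −log10 of its q-value (lowest 1.32 and 1.31). The deposited score was not used. The name of a further peak stands in each header line without values, so that peak was not analysed here. Positions and distances are in bp, per the file headers; starts are given counted from 1.

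Members were the rows annotated as promoter within 1 kb with a distance above 0. Overlap was at least 1 bp. For the pile-up, the whole number k was sought for which the fold equals (k + 1)/(λ + 1), λ being the local background, and the p-value equals the upper Poisson tail beyond k. Its misfit had to be below 0.1 times that of the second best k, which held for 99.8% of Control and 99.9% of Myocd-LSD1 peaks. Reads after PCR may repeat 1 molecule. Overlap, recovery and class assignment were tested on simulated data. Python 3.11.15, pandas 2.3.3 and scipy 1.17.1 were used.

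The members, the 20 gene lists and the rule for named genes were chosen with earlier results of these data known. The rule takes contractile genes and smooth muscle factors with a member, up to 4 genes of each other list by fold, the 10 highest members of each list alone and of both, Control genes with most members, and those nearest the limits. Foxf1 and the Hox genes fall under it; the printed windows were chosen after values were seen. Some members that the rule takes are not reported here.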

Additional observations from a re-analysis of the deposited data

How the results depend on the processing

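The share of Control downstream peaks that were met (23.8%) was 22.6% with both lists at a −log10 q-value of at least 2 and 23.8% on assembled chromosomes. It was 15.1% with a reciprocal overlap of 50%, 19.5% with summits within 200 bp, 17.9% when the partner had to be downstream, 26.7% in a window of 500 bp and 37.2% with the Control list shortened to 9523 peaks. Placed by the summit, which lets in peaks that cover the start, it was 39.8%. The Myocd-LSD1 share (55.3%) was 33.6%, 45.6%, 32.8%, 54.9%, 27.6% and 64.3% in the same 6 settings, and 60.3% under the stricter q-value. The ratio of peak numbers (1.83) turned to 0.535 with the shortened Control list, which by construction holds as many peaks as the other, and lay between 1.60 and 2.17 otherwise. The share of genes (31.6%) was 29.2% under the stricter q-value, 33.5% with peaks within 3 kb and 19.7% when the Myocd-LSD1 peak had to be downstream. For the moves not explained by construction the cause was not tested. In settings added after seeing the data the downstream share stayed below the upstream one, with 28.0% upstream under reciprocal overlap, 35.4% by summits, 40.3% under the stricter q-value, 67.0% with the shortened list and 44.3% within 500 bp. Over all Control peaks, also added then, the share (22.0%) was 14.4%, 18.9%, 21.6% and 38.7% under reciprocal overlap, by summits, under the stricter q-value and with the shortened list, near the downstream share in each. Over all Myocd-LSD1 peaks (59.4%) it was 38.6%, 50.6%, 71.4% and 39.1%, above the downstream share in each. No paired analysis was possible because each group has 1 list. Depth limits what a missing Myocd-LSD1 call at a peak of few fragments can show.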

Other observations

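On the mitochondrial sequence, which has no nucleosomes and many copies per cell, the ND5 peak was a member in both lists, with folds of 1.57 in Control and 1.84 in Myocd-LSD1, and COX2 and ND2 had members in Myocd-LSD1 with folds of 1.29 and 1.18. Together with 7 Control and 5 Myocd-LSD1 members on unplaced or random sequences, these were the members outside the assembled chromosomes.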
